A study of Mus musculus with 904 samples.

Results

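Deep-layer excitatory cortical nuclei made up 59 of the 835 mouse brain nuclei that held at least 1000 detected genes and 10000 reads, out of 904 nuclei sequenced. An excitatory nucleus was one with at least 50 CPM (counts of a gene per 1000000 reads of its nucleus) of Slc17a7, the vesicular glutamate transporter of most cortical excitatory neurons, and less than 20 CPM of Gad1, which makes GABA. It was a member when the summed CPM of Foxp2, Fezf2 and Tle4, transcriptional regulators of the deep cortical layers, was above that of Cux2 and Rorb, regulators of the upper and middle layers. Members were therefore 7.07% of the kept nuclei (exact 95% binomial interval 5.42 to 9.02) and 41.3% of the 143 excitatory nuclei.

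All nuclei came from C57Bl/6J mice given an adeno-associated virus of the PHP.eB capsid, in which the DLX2.0 enhancer drives a fluorescent protein joined to the histone H2B, and were sorted for fluorescence 3 to 4 weeks later. Each nucleus gave 1 full-length SMART-Seq v4 library without molecular identifiers. The 16 constructs named in the sample titles place RNA elements before or after the SYFP2-H2B reporter, or use dTomato or other reporter forms, and no untreated sample was among them. The treatment labels group the nuclei differently, since each title occurs with 4 or 5 of 16 vector codes, and sums, blocks and element shares here follow the titles. The labels place every nucleus in primary visual cortex, whereas the design text also names anterior lateral motor cortex and striatum, and they name no animal, so nuclei were summed per construct and p-values measure the spread between these sums, which may be technical.

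Dlx enhancers are known for activity in GABAergic neurons of the forebrain, so excitatory nuclei are not the cells such a vector is built to label. Deep cortical layers hold several projection classes. Corticothalamic neurons of layer 6 send axons to the thalamus, extratelencephalic neurons of layer 5 reach the brainstem and spinal cord, near-projecting neurons keep their axons close by, and layer 6b neurons are thought to derive in part from the embryonic subplate. Fezf2 directs corticofugal fate, and Foxp2 and Tle4 are used as markers of corticothalamic neurons.

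The rule genes are given as a description, since they chose the members. The summed Foxp2, Fezf2 and Tle4 level ran from 1.67 through a median of 296 to 1811 CPM, and Slc17a7 from 105 through 509 to 2261 CPM. Cux2 and Rorb were at 0 in 46 of the 59 members, and in 54 the deep sum was at least 4 times the upper sum. The member nearest the limit had a deep sum of 1.67 CPM against 0, and the nearest nucleus outside with any reads of these genes had 0 against 2.33 CPM. A further 24 excitatory nuclei had 0 on both sides and fell in the superficial class, which therefore was not a class of Cux2 or Rorb nuclei throughout. Tle4 reached 20 CPM in 46 members, Fezf2 in 28 and Foxp2 in 23. All of them did so in 14 members, and Tle4 alone in 21. These genes differed in how far they set the members apart from other classes. Fezf2 averaged 118 CPM in members, 4.27 CPM in striatal-gate nuclei and 0 CPM in GABAergic nuclei. Foxp2 averaged 92.5 CPM in members and 210 CPM in striatal-gate nuclei, and Tle4 224 and 142 CPM, so those genes were not confined to cortical excitatory nuclei here.

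Members held 105938 to 597824 reads (median 257855) and 2220 to 8506 genes (median 3605). Median depths were 257074 reads in 197 GABAergic nuclei (Gad1 at 50 CPM or more, little Slc17a7), 261113 reads in 325 striatal-gate nuclei (Slc17a7 under 20 CPM, with at least 100 CPM summed over 5 striatal genes, among them Rgs9, Drd1, Drd2 and Adora2a) and 227554 reads in 84 superficial nuclei. Library names carry 3 prefixes, and members were spread unevenly over them. They made up 32 of 106 kept nuclei with prefix S40317 (30.2%, interval 21.7 to 39.9). With S40325 they were 12 of 367 (3.27%, 1.70 to 5.64) and with S40327 15 of 362 (4.14%, 2.34 to 6.74). Binomial intervals here count nuclei as independent, although the labels name no animal, so they do not cover the spread between animals or constructs. In each of the 8 constructs with at least 5 kept nuclei both in S40317 and outside it, the member share was higher in S40317 (12.5% to 63.6%) than in the rest (2.56% to 13.3%). Members with prefix S40317 had a median of 5802 genes and of 1.45% mitochondrial reads, against 3073.5 genes and 0.00166% in S40325 and 3605 genes and 0.00259% in S40327. Of the 22 members with over 0.3% mitochondrial reads, 20 carried S40317, as did 20 of the 21 such GABAergic nuclei. What the prefix stands for is not given in the labels, and its part in the results was not tested beyond the values given with each comparison.

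**Figure D1:**
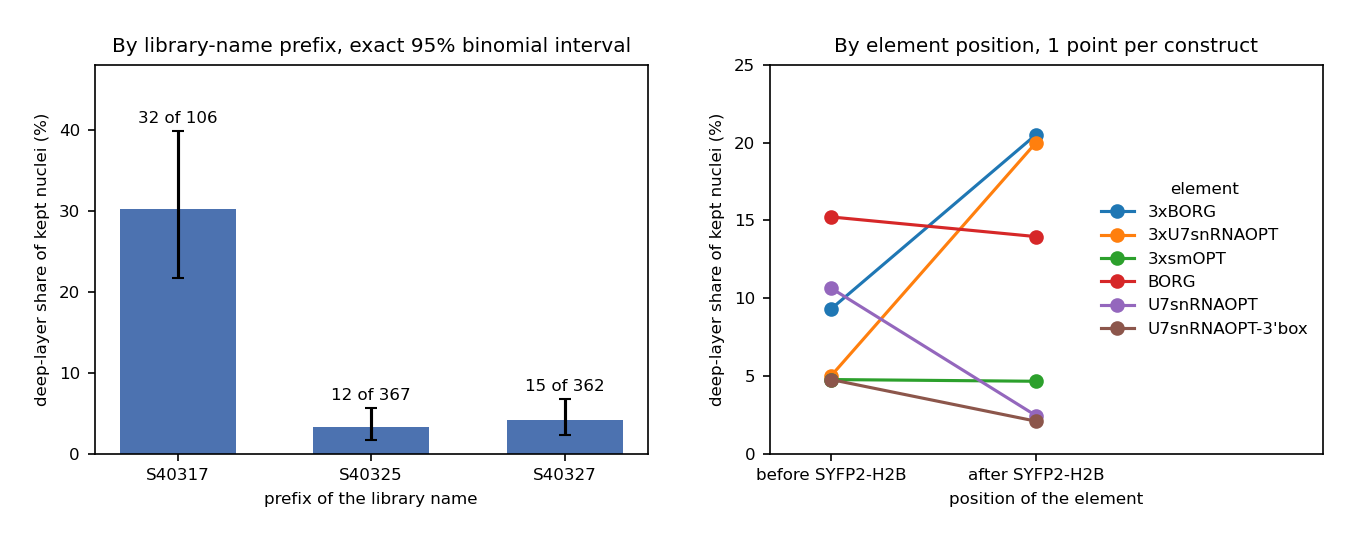
Share of kept nuclei that are deep-layer excitatory, in percent, by prefix of the library name (left, bars with exact 95% binomial intervals) and by position of the RNA element relative to SYFP2-H2B (right, 1 point per construct, lines join the same element). The bar of S40317 stands at 30.2% and the others at 3.27% and 4.14%, while the lines for element position cross.

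Most members carried further genes of excitatory neurons that the rule did not use. At least 3 of 11 glutamatergic identity genes reached 20 CPM in 55 of 59 members, and the summed level of that list ran from 658 through 2120 to 5453 CPM. Neurod6, a basic helix-loop-helix factor of maturing cortical excitatory neurons, had reads in 55.9% of members, 2.03% of GABAergic nuclei and 0 of 325 striatal-gate nuclei. With each nucleus thinned to 50000 reads the share in members was 52.5%. Reads are not independent molecules, so these intervals and limits cover counting error only. Of the other cell types, the GABAergic list was met by 1 member, the astrocyte list by 1, the oligodendrocyte list by 3, the endothelial list by 1, and the microglial and oligodendrocyte precursor lists by 0. In all, 4 members met a GABAergic, glial or endothelial list, and Gad1 had reads in 2. A list of 10 striatal genes, several of which (Foxp1, Meis2, Pde1b) cortical neurons also express, was met by 41 members and by 40 of 84 superficial nuclei, against 259 of 325 striatal-gate nuclei. Its summed level differed more than these counts, with a median of 683 CPM in members (0 to 14494), 651 CPM in superficial and 7303 CPM in striatal-gate nuclei (0 to 26924).

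Members differed in which projection class their other genes marked. With a class counted as present where at least 3 of its listed genes reached 20 CPM, 15 members met the corticothalamic list, 8 the extratelencephalic list, 6 the near-projecting list and 7 the layer 6b list. No member met the list for deep intratelencephalic neurons, whose axons stay within the cortex and striatum. Only 3 members met a pair of lists, 2 of them corticothalamic with near-projecting and 1 near-projecting with layer 6b, while 30 met a single list and 26 met none. At 50 CPM the counts were 14, 7, 5 and 6. The same lists were met by 0, 4, 0 and 0 of 84 superficial nuclei, by 0, 1, 1 and 0 of 197 GABAergic nuclei, and by 3, 6, 3 and 0 of 325 striatal-gate nuclei. Lists of 6 to 8 genes in nuclei of this depth miss cells, and a member without a list is not shown to belong to no class.

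**Figure D2:**
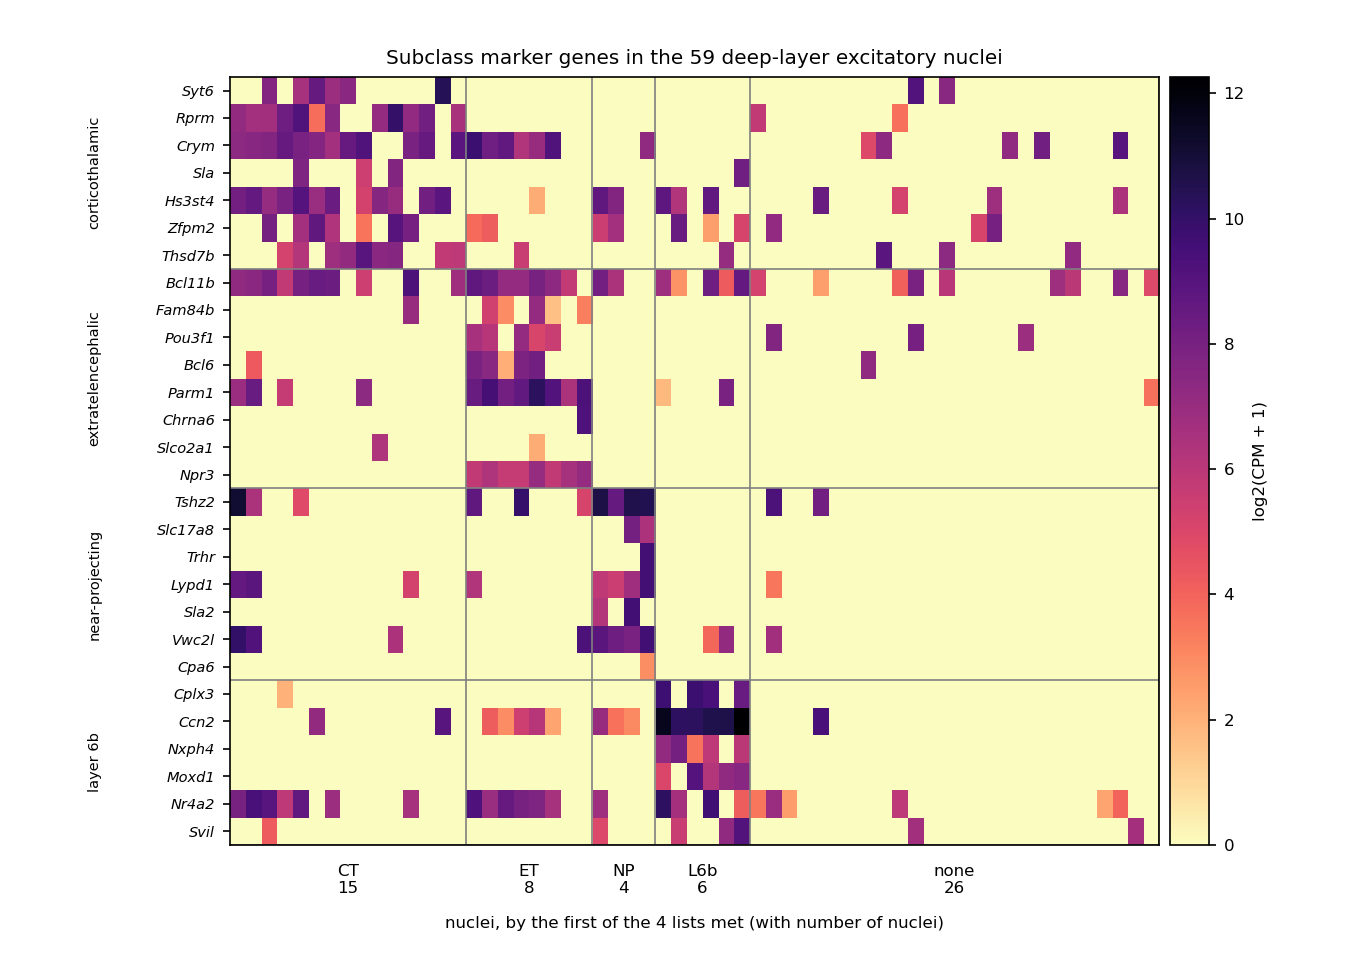
Level of each subclass marker gene (rows, log2(CPM + 1)) in each of the 59 members (columns), ordered by the first of the 4 lists met: corticothalamic (CT), extratelencephalic (ET), near-projecting (NP), layer 6b (L6b) or none. Npr3 is above 0 in the 8 extratelencephalic members and no others, and the 26 members at the right carry scattered single markers; the 3 members that met a pair of lists stand in the first of them.

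The 15 corticothalamic members came from 8 constructs, 12 of them with prefix S40317, and 8 of the 15 had over 0.3% mitochondrial reads. Among the genes that defined them, Rprm, a p53-induced cell cycle regulator and layer 6 marker, ran from 0 through a median of 137 to 1008 CPM. Crym, a thyroid hormone binding protein, ran from 0 through 199 to 567 CPM, and Hs3st4, a heparan sulfate sulfotransferase, from 0 through 183 to 524 CPM. Rprm reached 20 CPM in 11 of the 15, and Crym and Hs3st4 in 12 each. Of the rule genes, Tle4 reached that level in 13, Foxp2 in 12 and Fezf2 in 10. Outside both the rule and the list, Tbr1, a T-box factor of early-born cortical neurons, reached 20 CPM in 10 members (0, 157 and 889 CPM), and Nfia, a nuclear factor, in 13 (5.87, 253 and 695 CPM). Nfia, Vxn and Nptx1 were picked for mention after their values were seen. Vxn, a small neuronal protein, reached 20 CPM in 14 of the 15 and Nptx1, a secreted synaptic pentraxin, in 13, whereas Cck did so in 3.

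The 8 extratelencephalic members came from 6 constructs, 6 of them with prefix S40317. They held more genes than the others, with a median of 7848.5 against 3605 over all members, and 6 of the 8 had over 0.3% mitochondrial reads. Among the genes that defined them, Npr3, a natriuretic peptide clearance receptor, reached 20 CPM in all 8 (49.4, 67 and 135 CPM) and in no other member. Parm1, a membrane glycoprotein, did so in all 8 as well (86.8, 470 and 1207 CPM). Fezf2 reached 20 CPM in 7 of them, but Foxp2 in 1 and Tle4 in 3. The 13 members with Fezf2 and without Foxp2 at 20 CPM held 7 of the 8 with Npr3. Bcl11b, a zinc finger factor needed for subcerebral axons, reached 20 CPM in 7 (0, 149 and 414 CPM). Of the corticothalamic list, Rprm, Syt6, Hs3st4, Sla and Zfpm2 did so in 0 of the 8 and Thsd7b in 1. Crym, which is also on that list, reached 20 CPM in 6 (0, 212 and 879 CPM). Chosen after their values were seen, Cck, a neuropeptide, and Arc, an activity-induced synaptic regulator, reached 20 CPM in all 8 (109, 365 and 1302 CPM, and 22.9, 82.4 and 386 CPM), and Etv1, an ETS factor of layer 5, in 6.

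The 6 near-projecting members came from 4 constructs. Of the list genes that defined them, all 6 carried Tshz2, a zinc finger factor (86.4, 1485 and 2273 CPM), Vwc2l, a secreted BMP modulator (238, 509 and 1051 CPM), and Lypd1, a modulator of nicotinic receptors (45.5, 250 and 764 CPM). Tle4 was at 119 CPM or more in all 6 and Fezf2 at 20 CPM or more in 5. Slc17a6, another vesicular glutamate transporter, reached 20 CPM in 4 of them (0, 357 and 931 CPM) and in 8 members altogether. Picked after their values were seen, Neurod6 reached 20 CPM in all 6 (193, 649 and 1586 CPM), Vxn did so in 1, and Cck and Igfbp6 had 0 reads in all 6. By prefix the 6 fell as 4 in S40317, 1 in S40325 and 1 in S40327.

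The 7 layer 6b members came from 5 constructs and were the most even over prefixes, with 3, 1 and 3 in S40317, S40325 and S40327. Ccn2, Cplx3, Nxph4 and Moxd1 are list genes that defined them, so their levels in these members describe the choice. Ccn2, a matricellular growth factor also called Ctgf, reached 20 CPM in all 7, from 130 through 1551 to 4915 CPM. Cplx3, a complexin of the release machinery, did so in 4 of them (0, 350 and 883 CPM) and in no other member. Nxph4, a neurexin ligand, and Moxd1, a monooxygenase, reached 20 CPM in 4 and 5 of the 7, and likewise in no member outside them. Tle4 was at 81.8 CPM or more in all 7, and Nfib, picked after its values were seen, ran from 36.2 through 631 to 1154 CPM. Of the corticothalamic list, Rprm, Syt6 and Crym had 0 reads in all 7. Hs3st4 of the same list reached 20 CPM in 4 (0, 75.9 and 441 CPM), Zfpm2 in 3, and Sla and Thsd7b in 1 each. Of the 7, 1 member also carried interneuron genes, with Npy at 3062 CPM and Gad2 at 794 CPM.

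The 26 members that met no list were chosen by the rule mostly through Tle4, which reached 20 CPM in 20 of them and was the single rule gene to do so in 16. Foxp2 reached that level in 6 and Fezf2 in 5. They had a median of 3450.5 genes, against 4840 in the corticothalamic members, and 6 of the 26 had over 0.3% mitochondrial reads. All 7 members that met a superficial layer list were among them, against 38 of 84 nuclei of the superficial class. Slc30a3, the synaptic zinc transporter of intratelencephalic neurons, reached 20 CPM in 11 of the 26 and in 1 of the 33 other members. Mef2c, an activity-dependent factor, did so in 24 of the 26 (0, 753 and 2377 CPM), Foxp1 in 22 and Cck in 20. Slc30a3, Foxp1 and Cck were picked after their values were seen.

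Several markers that the rule did not use had reads in a larger share of members than of the other classes named with each. The rule used Slc17a7, Gad1, Foxp2, Fezf2, Tle4, Cux2 and Rorb. Ccn2 had reads in 28.8% of members (interval 17.8 to 42.1), 0 of 84 superficial nuclei, 4.06% of GABAergic and 1.23% of striatal-gate nuclei, and thinned to 50000 reads the share in members was 22% and in GABAergic nuclei 2.03%. The count of 0 of 84 allows a share of nuclei with a read of up to 3.57% by the limit of 3 counts and up to 4.30% by the exact 95% interval. Rprm had reads in 23.7% of members, 7.14% of superficial nuclei and 0.308% of striatal-gate nuclei. Crym had reads in 40.7%, 5.95% and 13.8%, and Nr4a2, an orphan nuclear receptor, in 40.7%, 13.1% and 1.23%. Thinned shares in members were 23.7% for Rprm, 40.7% for Crym and 37.3% for Nr4a2. Shares in GABAergic nuclei are not given here for Rprm, Crym and Nr4a2. At least 1 gene of the corticothalamic list reached 20 CPM in 39 of 197 GABAergic nuclei and 43 of 59 members. For the layer 6b list it was 88 of 197 GABAergic nuclei and 27 of 59 members. Other list genes did not set members apart. Moxd1 had reads in 8.47% of members but 34% of GABAergic nuclei, Syt6 in 13.6% but 40.6% of striatal-gate nuclei, and Bcl11b in 55.9% but 64.6% of striatal-gate nuclei, so single genes of a list name no class.

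By title, all 16 constructs held members, from 1 to 9 each. By vector code, 15 of 16 did, from 0 of 35 kept nuclei with AiP14787 to 10 of 42 with AiP14794. SYFP2-H2B-3xBORG-BC had 8 of 39 kept nuclei (20.5%) and SYFP2-H2B-3xU7snRNAOPT-BC 9 of 45 (20%). For the 6 elements placed on either side of SYFP2-H2B, the share averaged 8.28% ± 4.25 (SD, n = 6) with the element before and 10.6% ± 8.63 (SD, n = 6) with it after. It was higher after in 2 of 6 elements, a difference of 2.33 percentage points that was within the spread between elements (exact two-sided paired permutation p = 0.5625, smallest possible 0.031). The shares of 3xBORG and 3xU7snRNAOPT went from 9.30% to 20.5% and from 5% to 20%, while U7snRNAOPT went from 10.6% to 2.44%. Prefixes differed between these constructs, and their part was not tested. Of the 9 members with 3xU7snRNAOPT after, 7 carried S40317, which no nucleus with it before did. Within S40327 its shares were 5% before and 5.88% after. Of the 5 members with U7snRNAOPT before, 4 carried S40317, which no nucleus with it after did. S40317 occurred with 3xBORG on both sides, with shares within S40327 of 3.70% and 13.3%. Without S40317 the mean difference was 0.298 percentage points.

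Against GABAergic nuclei, members were higher in genes of cortical excitatory neurons and lower in genes of interneurons. Counts were summed per construct and class over the 8 constructs with at least 3 nuclei in both, which took 46 members and 96 GABAergic nuclei. Of 9592 genes tested, 125 differed (1.3%), 57 higher in members (0.594%) and 68 lower (0.709%). Since the classes were split on Slc17a7 and Gad1, the direction of the transmitter identity genes is not independent evidence. In S40317 alone, 47 genes were called, and without S40317, which left 2 constructs with 7 members and 32 GABAergic nuclei, 23 were called. Without S40327 the count was 58, without the construct SYFP2-H2B-3xBORG-BC 78, and without nuclei over 0.3% mitochondrial reads 43.

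**Figure D3:**
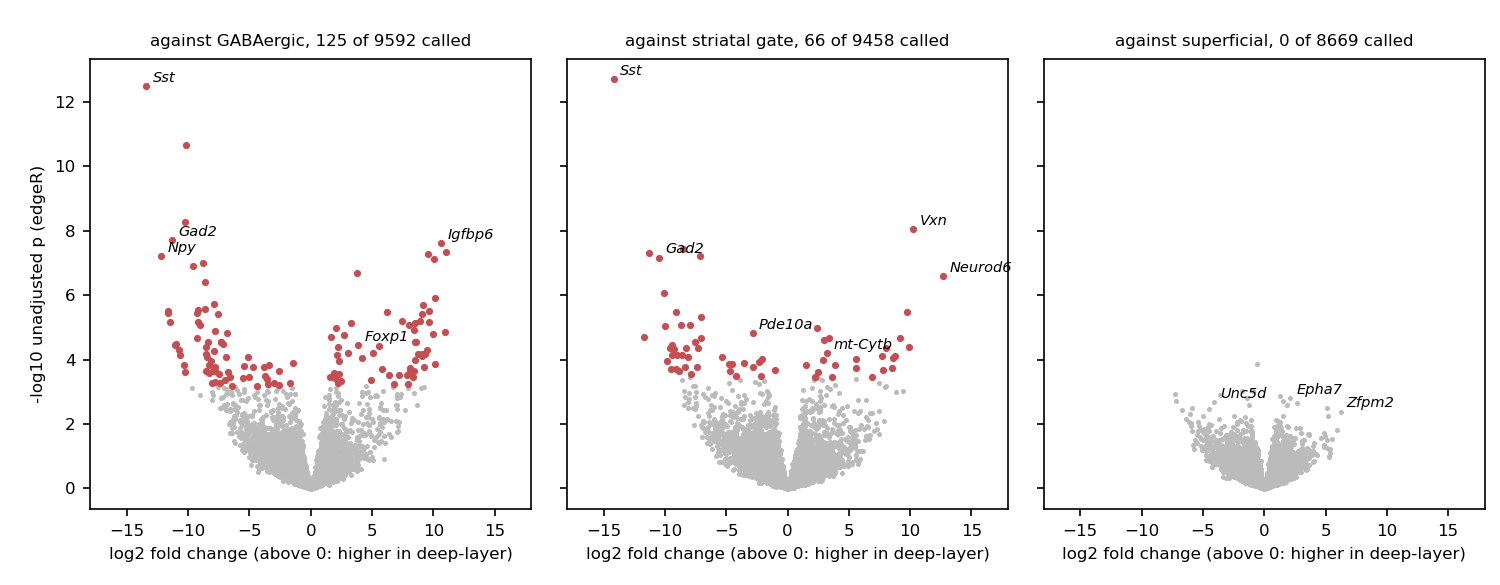
Log2 fold change of each tested gene between deep-layer members and the named class (horizontal axis, above 0 higher in members) against the -log10 unadjusted p of edgeR (vertical axis), 1 point per gene, with genes at an adjusted p under 0.05 in red. The panels hold 125, 66 and 0 red points.

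The genes highest against GABAergic nuclei included several with no or few reads in that class. Vxn (chromosome 1, 9601199 to 9627143, plus strand, GRCm38) ran from 85.3 through 372 to 619 CPM over the 8 construct sums of members, against 0 to 9.20 CPM in GABAergic sums, a log2 fold change of 11 ± 1.20 (SE; edgeR, adjusted p = 7.03e-05). The ranges did not overlap. Igfbp6, a secreted binder of insulin-like growth factor II (chromosome 15, 102144362 to 102149511, plus strand), ran from 45.2 through 152 to 304 CPM against a single read, a ratio of 4122 with a counting interval of 739 to 162880 (log2 10.63 ± 1.11, edgeR adjusted p = 4.79e-05). Col6a1, a collagen VI chain (chromosome 10, 76708792 to 76726168, minus strand), ran from 27.6 through 110 to 272 CPM against 0 reads, at least 1081-fold higher with 3 counts over the group as the floor (edgeR adjusted p = 0.0034). Neurod6 (chromosome 6, 55677822 to 55681263, minus strand) ran from 60.7 through 249 to 588 CPM against 0 to 7.42 CPM, with no overlap (9.56 ± 1.05, edgeR adjusted p = 7.03e-05). Inf2, a formin, Kcnv1, a silent potassium channel subunit, Klf10, a zinc finger factor, and Jcad, a junctional protein, were higher by 10.04 ± 1.13, 10.16 ± 1.40, 9.09 ± 1.37 and 9.62 ± 1.52 on the log2 scale, and Tmem121b, a membrane protein, by a ratio of 708 (241 to 3437) against 3 reads. For the noncoding C730002L08Rik, with 0 reads in GABAergic nuclei, members were at least 512-fold higher.

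Of a list of corticofugal transcription factors, which also holds Crym, a marker that is no such factor, 4 of 13 genes tested were higher in members and none was lower, with a median log2 fold change of 2.49 against -0.31 over all genes tested. Those 4 were Tbr1 (8.41 ± 1.82), Ldb2, a LIM-domain cofactor (9.26 ± 1.95), Foxp1 and Crym. Foxp1, a forkhead factor (chromosome 6, 98925338 to 99522721, minus strand), was present in both classes and did not overlap: 141, 239 and 365 CPM in members against 4.92, 18.1 and 55.1 CPM (3.87 ± 0.70, edgeR adjusted p = 0.00652). Crym (chromosome 7, 120186380 to 120202111, minus strand) was higher in 7 of 8 constructs, at 0, 131 and 498 CPM against 0 to 28 CPM, and the ranges overlapped at 0 (9.94 ± 1.65, edgeR adjusted p = 0.00391). It was the 1 gene called among 5 tested corticothalamic markers. None was called of 3 extratelencephalic, 2 near-projecting and 2 layer 6b markers tested (0, 0 and 1 at an unadjusted p under 0.05, and the same counts by DESeq2). The 2 layer 6b markers tested, the 1 at that p among them, were each lower in members, with a median log2 fold change of -2.94. The extratelencephalic, near-projecting and layer 6b lists hold 8, 7 and 6 genes, and the rest did not pass the low-count filter. Arc was the 1 of 7 immediate early genes that was higher (62.8, 185 and 276 CPM against 0 to 66.5 CPM, edgeR adjusted p = 0.00222). All 7 had a positive fold change, with a median of 2.4.

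Of the genes for membrane excitability and connectivity, edgeR called 5 of 38 potassium channel genes and at most 2 in each other list. The share called over all genes tested was 1.3%. Of 38 potassium channel genes, Kcnv1 and Kcnh3 were higher in members and Kcnc1, Kcnc2 and Kcns3, genes known from fast-spiking interneurons, were lower (-3.43 ± 0.71, -3.78 ± 0.79 and -7.85 ± 1.69). The median of the 38 was -0.03. Scn9a, a sodium channel, was the 1 gene lower of 11 sodium and HCN channels (-7.79 ± 1.63, edgeR adjusted p = 0.02). Of 17 calcium channel, 22 glutamate receptor, 13 GABA receptor, 12 monoamine, acetylcholine and opioid receptor and 25 cadherin genes, edgeR called 0 at an adjusted p under 0.05. At an unadjusted p under 0.05 there were 3, 9, 2, 1 and 6 such genes in that order, and DESeq2 called 3, 7, 2, 2 and 7 and limma 1, 3, 2, 1 and 2. Over all 9592 genes tested, 898 had an unadjusted p under 0.05 by edgeR, and DESeq2 called 1101 (11.5%) and limma 300 (3.13%). Of 44 axon guidance genes, Nrp1, a semaphorin co-receptor, was higher (9.45 ± 1.77, edgeR adjusted p = 0.00855) and Sema4g, a semaphorin, was lower (-6.94 ± 1.36, edgeR adjusted p = 0.0116). At an unadjusted p under 0.05 there were 10 axon guidance genes, and DESeq2 called 13 and limma 5. edgeR, DESeq2 and limma called 0 of 75 ribosomal protein genes, with a median of 0.08 and 0 at an unadjusted p under 0.05. They called 0 of 11 mitochondrially encoded genes, with a median of 1.78 and 2 at an unadjusted p under 0.05.

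Interneuron genes were lower in members. The neuropeptide gene Sst ran from 0 to 4.68 CPM in members, with reads in 1 of the 46, against 5.09, 1929 and 13221 CPM in GABAergic sums (-13.42 ± 0.69, edgeR adjusted p = 3.15e-09). Npy, another interneuron peptide, was at 0 in most member sums and at 198 CPM in the highest, all from 1 nucleus, against 490 to 10014 CPM (-12.20 ± 1.35, edgeR adjusted p = 7.29e-05). Gad2, which makes GABA, was lower by -11.28 ± 1.16. Sox6, Thsd7a, Dlx1, Cox6a2, Lhx6 and Gm14204 had 0 reads in the 46 members, which makes them at least 679-, 689-, 563-, 469-, 414- and 411-fold lower. Sox6, Dlx1 and Lhx6 encode factors of the interneuron lineage. Calb1, a calcium buffer listed here as a superficial layer marker and also found in interneurons, was lower as well (-5.01 ± 1.13, edgeR adjusted p = 0.0308), at 0, 17.7 and 334 CPM against 45.2, 233 and 1074 CPM, with overlap.

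**Figure D4:**
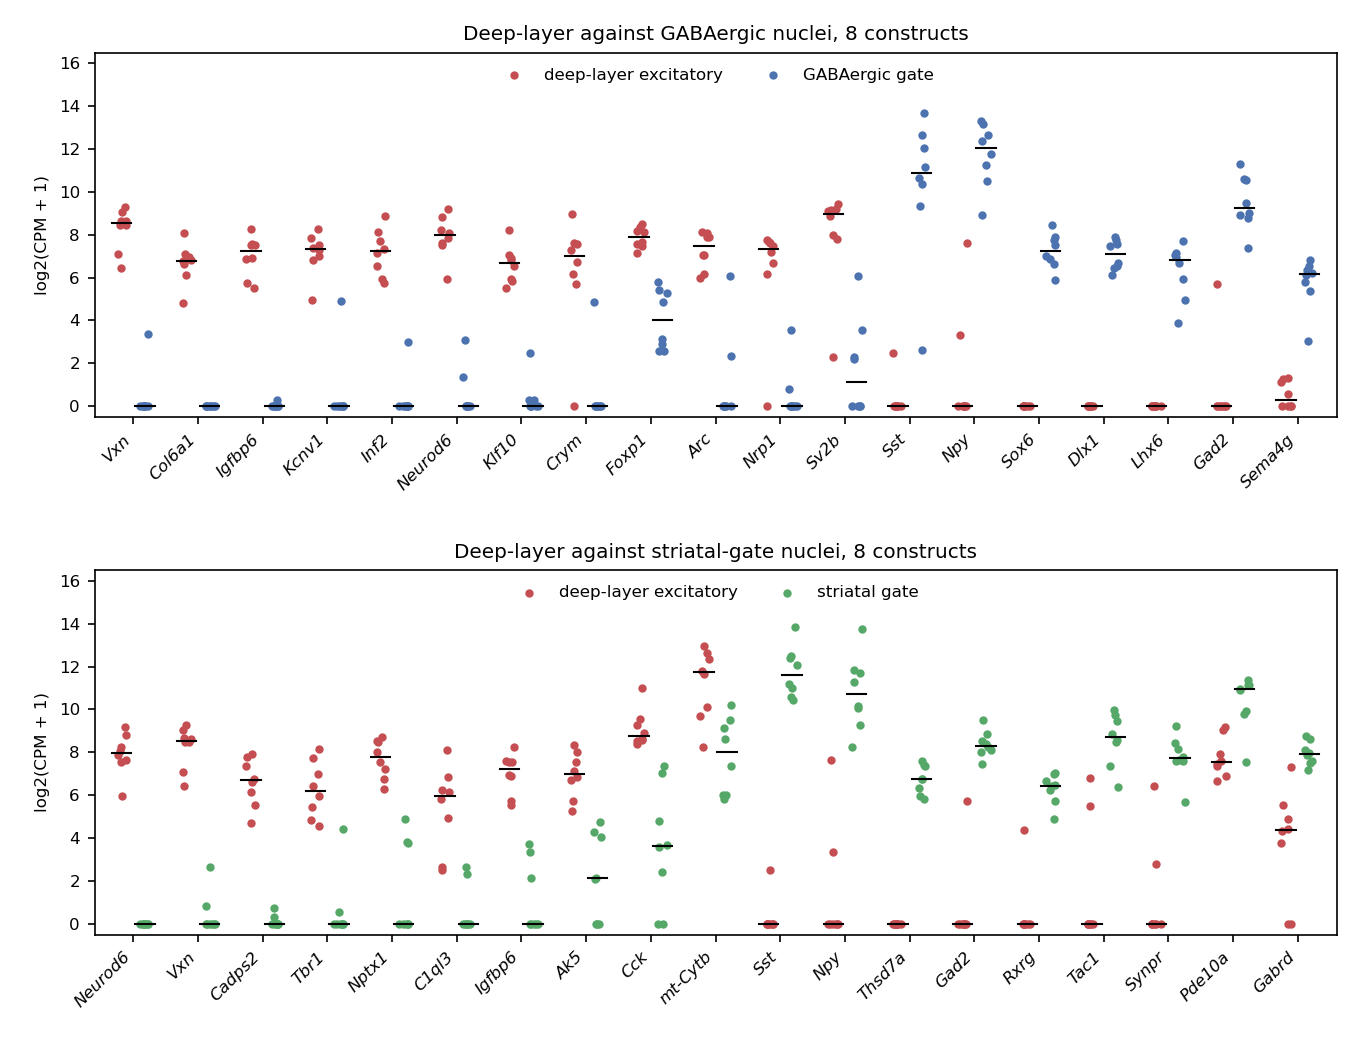
Level of named genes (log2(CPM + 1)) in each construct sum of members and of GABAergic nuclei (top) or striatal-gate nuclei (bottom); each point is 1 of 8 constructs and the black bar is their median. Vxn, Neurod6 and Igfbp6 lie apart in members from both other classes, while the ranges of Pde10a and of Gabrd overlap between classes.

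Of 33 called genes named here, 14 of 31 tested were called within S40317 alone (among them Vxn, Igfbp6, Neurod6, Kcnv1, Crym, Arc, Npy and Gad2), 16 of 29 with nuclei summed per construct and prefix, 9 of 26 without nuclei over 0.3% mitochondrial reads and 4 of 32 without S40317 (Sst, Npy, Gad2 and Kcnc1). The nuclei in the fit were 30, 9 and 7 members against 25, 39 and 32 GABAergic nuclei by prefix in the order S40317, S40325 and S40327. DESeq2 called all 33.

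Against striatal-gate nuclei, cortical excitatory genes were higher in members and striatal and GABAergic genes lower. The fit used 8 constructs with 46 members and 168 striatal-gate nuclei. Of 9458 genes tested, 66 differed (0.698%), 24 higher (0.254%) and 42 lower (0.444%). The gate did not isolate projection neurons alone: among all 325 nuclei that passed it, 282 held Pde10a and 243 Ppp1r1b at 20 CPM, but 125 met the GABAergic list, 64 held Sst and 57 Npy. Of the 160 with 1 or 2 of its 5 genes at 20 CPM, 52 held Sst, against 12 of the 165 with 3 or more. Members and gate nuclei were split over the prefixes unequally: 30 of the 46 members in the fit and 5 of the 168 gate nuclei carried S40317, so most members in the fit carried one prefix and most gate nuclei the others. Without S40317 the count was 20, without S40327 12, without nuclei over 0.3% mitochondrial reads 7, and with nuclei summed per construct and prefix 9. Leaving out SYFP2-H2B-3xU7snRNAOPT-BC gave 27, leaving out dTomato-H2B 32, and leaving out 3xBORG-SYFP2-H2B-BC, BORG-SYFP2-H2B-BC, SYFP2-H2B-BORG-BC or U7snRNAOPT-SYFP2-H2B-BC 31 each.

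Among the higher genes, Neurod6 had 0 reads in the 168 striatal-gate nuclei and was at least 4871-fold higher (edgeR adjusted p = 0.000349). Vxn was at 0 to 5.28 CPM in gate sums against 85.3 to 619 CPM (10.27 ± 1.01, edgeR adjusted p = 4.34e-05), with no overlap. Tbr1 (chromosome 2, 61802930 to 61814114, plus strand) ran from 22.6 through 72.8 to 281 CPM against 0 to 20.4 CPM (9.16 ± 1.60, edgeR adjusted p = 0.0105), also apart. Cadps2, a regulator of dense-core vesicle release, ran from 24.6 through 102 to 240 CPM against at most 0.650 CPM (9.76 ± 1.47, edgeR adjusted p = 0.00327). Nptx1, Igfbp6, C1ql3, a secreted synaptic organiser, and Ak5, an adenylate kinase, were higher by 8.01 ± 1.48, 7.74 ± 1.51, 7.80 ± 1.68 and 5.59 ± 1.18. Cck was at 329, 436 and 2040 CPM in member sums against 0, 11.4 and 165 CPM (5.58 ± 1.11, edgeR adjusted p = 0.0228). Of 14 genes of the corticofugal list tested Tbr1 was the 1 called, with a median of 1.79 against -0.22 over all genes, and of 8 glutamatergic identity genes Neurod6, Tbr1 and Mef2c (2.94 ± 0.52) were higher.

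The striatal identity list, which the gate's own genes were not part of, had 4 of 8 tested genes lower and none higher, with a median of -3.21. They were Ppp1r1b (-3.56 ± 0.73), Tac1, Pde1b (-2.78 ± 0.59) and Pde10a, which encode an inhibitor of protein phosphatase 1, a tachykinin precursor and cyclic nucleotide phosphodiesterases. Pde10a was lower in 7 of 8 constructs, at 100.7, 184 and 585 CPM against 185, 1949 and 2638 CPM (-2.85 ± 0.48, edgeR adjusted p = 0.00867), and the ranges overlapped. Tac1 was at 0 to 110 CPM against 82.5, 418 and 1014 CPM (-9.11 ± 1.36, edgeR adjusted p = 0.00327). Of the 8 GABAergic identity genes 4 were lower, among them Gad2 (-10.51 ± 1.19), and Sst and Npy were lower by -14.15 ± 0.72 and -11.31 ± 1.25. Rxrg, a retinoid receptor, Synpr, a synaptic vesicle protein, Cacna2d3, a calcium channel subunit, and Gabrd, a GABA receptor subunit, were lower by -9.56 ± 1.77, -8.66 ± 1.40, -2.30 ± 0.47 and -4.19 ± 0.94.

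Of 8 mitochondrially encoded transcripts tested, mt-Cytb and mt-Nd4 were higher in members, and the median of the 8 was 3.42. The transcript mt-Cytb ran from 305 through 3378 to 8011 CPM over member sums, against 55.4, 280 and 1178 CPM (3.21 ± 0.62, edgeR adjusted p = 0.0204), and the ranges overlapped. With nuclei summed per construct and prefix its fold change was 0.68 and that of mt-Nd4, 3.86 in the sums per construct, was 1.77 (edgeR adjusted p = 0.998 for both). Of 29 called genes named here, 6 of 24 tested were called with construct and prefix sums (Sst, Npy, Gad2, Synpr, Vxn and Neurod6). Against the gate nuclei with at least 3 gate genes at 20 CPM, 53 genes were called of which 14 were among 22 named genes tested (among them Neurod6, Vxn, Cadps2, Nptx1, Cck, Tac1 and Pde10a).

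Against superficial excitatory nuclei, which share the Slc17a7 and Gad1 limits, edgeR called 0 of 8669 genes (0%) in 7 constructs with 37 members and 53 superficial nuclei. At an unadjusted p under 0.05 there were 234 genes, DESeq2 called 90 and limma 1. A missing call does not show that the classes were alike. Epha7, an ephrin receptor, was at 227, 274 and 428 CPM in member sums against 12, 80.9 and 160 CPM, with ranges that did not overlap and a log2 fold change of 2.12. Crym was at 0, 106 and 498 CPM against 0 to 34.1 CPM (5.09), and Zfpm2, a transcriptional cofactor of corticothalamic neurons, had a fold change of 6.22 and Hs3st4 of 3.16. Rasgrf2, Cux1 and Unc5d, upper layer genes, had fold changes of -4.51, -2.26 and -4.10. These genes were picked from the uncalled ones after their values were seen, and each had an edgeR adjusted p of 1. The 4 corticothalamic markers tested had a median of 4.12, the 3 extratelencephalic markers 2.92, the 4 superficial markers -2.36 and the 11 glutamatergic identity genes -0.35, against -0.19 over all genes.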

How the data were processed

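The authors deposited read counts per gene as whole numbers, in 1 table of 32285 genes and 2501 columns; 904 columns match a sample of the series and the other 1597 were not used. Per the submitters' processing notes, the aligner was STAR 2.7.2a and the build mm10; the counting step and its strand setting are not given in the sources used here. Gene IDs were matched to GENCODE M21 (32158 matched, 127 not). The nucleus libraries carry no unique molecular identifiers, so counts are reads. Nuclei were sorted 1 per well and no doublet caller was run.

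Counts were scaled to CPM, and nuclei classed by the gates given in the report. Nuclei were summed per construct title and class where both classes had at least 3, and genes of low count were removed (filterByExpr). After TMM scaling, edgeR 4.0.16 (limma 3.58.1, R 4.3.3) fitted its quasi-likelihood model, with the construct as a block and Benjamini-Hochberg adjustment at 0.05 over all genes that no gate used. SE is the size of the log2 fold change over the square root of F. DESeq2 1.42.0 was an alternative. Shares have Clopper-Pearson 95% intervals, and thinned shares draw 50000 reads per nucleus. Other tools were Python 3.11.15, numpy 2.4.6, pandas 2.3.3, scipy 1.17.1 and matplotlib 3.10.9. The edgeR step was tested on simulated data.

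Genes named are the 10 called genes that changed most each way, with a mean of at least 20 CPM in the higher class and one direction in every construct, the 2 smallest p of each list, the subclass markers and the rule genes; others are marked as picked after their values were seen. The members and gene lists were chosen with earlier results of these data known. Some genes that this rule or the gates select are not reported here.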

Additional observations from a re-analysis of the deposited data

Results flagged for a closer look

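In 42 of the 129 groups of construct sums checked, over 58 genes, 1 construct lay far from the others by Dixon's criterion at 95%. The criterion flags about 1 in 20 groups by chance where values are normally distributed. Sums of sparse genes are not, so the share that chance flags here is not known. Many of these groups were at 0 in nearly all constructs, so that a few reads in 1 construct set it apart. In 24 of the 42 the reads of that construct came from 1 nucleus, and in 28 a single nucleus held at least 90% of them. The causes were not tested. Values are CPM.

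Among the member sums that stood above the others, more came from SYFP2-H2B-3xU7snRNAOPT-BC, which holds 9 members, than from any other construct. It carried Npy at 198, Gad2 at 51.3, Scn9a at 30.3, Sox2ot at 37.7, Rxrg at 19.8 and Dlx6os1 at 21.8, which are genes of GABAergic or striatal neurons, and Col6a1 at 272. One and the same member, a layer 6b member with 166207 reads, held all reads of Npy, Gad2, Sox2ot, Rxrg and Dlx6os1 and 94.9% of those of Scn9a, so these values belong to that nucleus and not to the 9 members. The members of SYFP2-P2A-3XFLAG-H2B stood above with Klf10 at 297, Calb1 at 334, Tac1 at 110 and Gabrd at 160. Those of 3xBORG-SYFP2-H2B-BC did so with Crym at 498, C1ql3 at 272 and Dach1 at 3.86, those of SYFP2-H2B-3xBORG-BC with Sst at 4.68 and Synpr at 83.8, those of BORG-SYFP2-H2B-BC with Tmem121b at 214 and those of U7snRNAOPT-SYFP2-H2B-BC with Cck at 2040. Many of these values also rest on single nuclei. In SYFP2-P2A-3XFLAG-H2B, 1 member held 95.7% of the Klf10, 90% of the Calb1 and all of the Tac1 reads. Another member held 89.6% of its Gabrd reads. The reads of Dach1, Sst and Synpr came from 1 nucleus each. The top nucleus held 66.2% of the Crym, 71.6% of the C1ql3, 72.6% of the Cck and 34.9% of the Tmem121b reads.

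Among GABAergic sums, SYFP2-H2B-3xU7snRNAOPT-BC stood above the rest with Neurod6 at 7.42, Klf10 at 4.52 and Arc at 66.5. SYFP2-H2B-3xBORG-BC did so with Vxn at 9.20, SYFP2-P2A-3XFLAG-H2B with Inf2 at 6.93, Kcnh3 at 4.39 and Nrp1 at 10.6, and U7snRNAOPT-SYFP2-H2B-BC with Kcnv1 at 28.6 and Crym at 28. For dTomato-H2B the genes were Igfbp6 at 0.222 and Sv2b at 66.3, and for BORG-SYFP2-H2B-BC they were Jcad at 4.46 and Tmem121b at 0.811.

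Among striatal-gate sums, SYFP2-H2B-3xBORG-BC, with 4 such nuclei, carried Sst at 14774.5, Npy at 13748, Dlx6os1 at 264 and Nptx1 at 28.8. BORG-SYFP2-H2B-BC carried Tbr1 at 20.4 and mt-Nd4 at 484, SYFP2-H2B-BORG-BC C730002L08Rik at 1.91, SYFP2-P2A-3XFLAG-H2B Cadps2 at 0.650 and U7snRNAOPT-SYFP2-H2B-BC Vxn at 5.28. Among superficial sums, SYFP2-H2B-3xBORG-BC carried Zfpm2 at 18.5 and U7snRNAOPT-SYFP2-H2B-BC Rasgrf2 at 439.

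Outside the comparisons, 9 nuclei with Slc17a7 at 50 CPM or more and Gad1 at 20 CPM or more had a Foxp2, Fezf2 and Tle4 sum above that of Cux2 and Rorb. Their Gad1 level ran from 45.8 through 395 to 926 CPM, 5 met the GABAergic list, 7 the glutamatergic list and 3 both.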

How the results depend on the processing

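The number of genes called depended on the processing, and the cause was not tested except where fewer constructs or genes entered the fit. Against GABAergic nuclei, edgeR called 125 genes, and the count was 343 without the low-count filter, 1101 with DESeq2, 300 with limma, 70 with at least 5 nuclei per construct and class, 23 without prefix S40317, 58 without S40327, 43 without nuclei over 0.3% mitochondrial reads and 78 to 177 leaving out each construct. Against striatal-gate nuclei, the count of 66 became 262, 940 and 136 under the first 3 of these, 24 summed per vector code, 29 with at least 5 nuclei, 20 without S40317, 12 without S40327, 7 without nuclei over 0.3% mitochondrial reads and 27 to 72 leaving out each construct. Against superficial nuclei, the count of 0 became 8, 90 and 1 under the first 3, 1 with at least 5 nuclei, 4 without S40317, 1 without S40325 and 2 without nuclei over 0.3% mitochondrial reads, and stayed at 0 leaving out each construct. Added after the data were seen, sums per construct and prefix gave 52 and 9 calls against GABAergic and striatal-gate nuclei, and S40317 alone gave 47 against GABAergic nuclei; it was not run against striatal-gate nuclei, where 1 construct had 3 nuclei in both classes. Fits without S40317 rest on 2 constructs, a minimum also set after the data were seen. DESeq2 size factors in edgeR, no construct block, at least 2000 genes per nucleus and members at 4 times the upper sum gave counts within 1.5 times of those above. The called genes named against GABAergic and striatal-gate nuclei kept their sign under each alternative in which they were tested; those named against superficial nuclei were picked in part for that, and nothing is read from theirs. The share difference by element position was positive under all 6 alternatives, from 0.298 to 8.90 percentage points, and none passed the exact test. By replicate number, no paired analysis was possible because the numbers in the titles name nuclei within a construct; the construct was the block between classes and the element the pair for shares. Depth limits list membership: in the shallowest member, with 105938 reads, 20 CPM corresponds to about 2 reads.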

Other observations

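A further 19 kept nuclei held Slc17a7 at 50 CPM or more together with Gad1 at 20 CPM or more, and the rule left them out of the members. Of these, 14 met the GABAergic list, 10 the glutamatergic list and 5 both.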
